A study of Mus musculus with 96 samples.

Results

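The daily expression profiles of liver genes were compared between a low-fat and a high-fat diet in adult male mouse offspring of mothers kept on an ordinary light schedule. The comparison is the time by diet interaction, which asks whether the shape of a gene's 24 h profile (its amplitude and peak time) depended on diet, and a constant difference in level between diets does not enter it. It used 24 of the 96 libraries in the series, 12 from each diet. The offspring were C57BL/6J males whose mothers had 12 h of light and 12 h of dark through pregnancy (control mothers), and who ate the low-fat or the high-fat diet freely from 4 weeks of age for 12 weeks. Livers were taken at 4 zeitgeber times 6 h apart, where ZT0 is lights on, and poly(A) RNA was sequenced from 3 libraries per diet and time. Offspring of mothers with a repeatedly advanced light schedule (shifted mothers), on the same diets and at the same times, gave 24 further libraries and serve here only as a comparison. The labels do not say whether the 3 libraries of a group came from separate animals, so every p-value measures the spread between these libraries, which may be technical.

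In liver, nearly every cell runs a molecular clock. Arntl (BMAL1) and Clock activate the Per, Cry and Nr1d genes through E-boxes, the PER and CRY proteins then repress that activation, and NR1D proteins repress Arntl. The proline- and acid-rich factors Dbp, Tef and Hlf carry the rhythm to output genes through D-boxes. Feeding time and diet composition act on top of this clock, so liver genes of lipid and glucose metabolism cycle with meals as well as with the clock, and mice eat mostly in the dark phase, from ZT12 to lights on.

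Values are FPKM divided by a scaling factor for each library, and differences are on the scale of log2(FPKM + 1), which understates the change of weakly expressed genes. Depth cannot be computed from FPKM, so no counting intervals are given. Hepatocyte identity genes such as albumin summed to between 44910 and 68821 FPKM in each of the 24 libraries, and macrophage markers to between 60.7 and 273. Of the 24 libraries, 3 correlated with the other libraries of their arm (median Spearman correlation) at under 0.95, namely replicate 2 of low-fat ZT0, replicate 1 of high-fat ZT0 and replicate 2 of high-fat ZT12. Replicate 1 of high-fat ZT0 listed 2411 of the 10499 tested genes at exactly 0, against 9 to 20 in the other 23 libraries, and 103 of those genes had a mean of at least 10 FPKM. A value of 0 in that library is therefore given only as listed, and no high-fat ZT0 mean of a single gene is printed where it holds one. Fits, list medians, counts of the time of the highest mean, counts of genes without overlap and plotted means do include that library. Where it is left out, this is said. Replicates 2 and 3 of low-fat ZT6 were nearly the same, with a median absolute difference of 0.0579 on the log2 scale. The next closest pair of replicates in the 8 groups of these 24 libraries differed by 0.140. Without counts it cannot be tested whether they differ by more than sampling noise, so they were counted as 2 libraries and also as 1.

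No gene passed the test of the interaction at an adjusted p of 0.05 (0 of 10499 genes, limma F test with Benjamini-Hochberg adjustment, 0% called). At an unadjusted p under 0.05 there were 837 genes (7.97%), and at an adjusted p under 0.1 there were 4 (0.0381%), namely Nampt, Xlr4a, Srm and G530011O06Rik. Without replicate 1 of high-fat ZT0, the library with many values of 0, 5 of 10453 genes passed (0.0478%), namely Nampt, Srm, Xlr4a, Clec1b and G530011O06Rik. Without all 3 libraries of low correlation, 7 of 10313 genes passed (0.0679%), namely Nampt, Srm, Agtr1a, Clec1b, Mrc1, Tab2 and G530011O06Rik, and 40 (0.388%) had an adjusted p under 0.1. In a fit of all 48 offspring libraries 3 genes passed (0.0276%), namely Srm, Cables1 and Hspa8. In the 24 libraries, Xlr4a and Cables1 reached the filter of 1 FPKM in 3 libraries only through the group where each was high. Their p-values are therefore given as values only. A test of the 24 h cosine terms alone called 0 genes, with 939 (8.94%) at an unadjusted p under 0.05. G530011O06Rik, an unnamed gene model, was at 8.84, 8.18 and 4.2 FPKM in the low-fat arm at ZT18, and none of the other 21 libraries exceeded 1.54. Time of day itself was called for 574 genes in the low-fat arm (5.47%) and 440 in the high-fat arm (4.19%). Of these, 156 were called in both arms, which is 27.2% of the low-fat and 35.5% of the high-fat list, and 115 of the 156 had their highest mean at the same time on both diets. Without the 3 libraries the calls were 2577 (25%) and 774 (7.51%). Single libraries moved them too. Each arm's test used 1 estimate of spread shared by both arms, so a library of either diet enters both counts. The low-fat count was 1531 without replicate 1 of high-fat ZT0, 924 without replicate 2 of high-fat ZT12, 346 and 357 without replicate 2 or 3 of low-fat ZT6, and 362, 350 and 377 without replicate 1, 2 or 3 of low-fat ZT12. The high-fat count was 1045 and 271 without replicate 1 or 2 of high-fat ZT12, 736 and 777 without replicate 1 or 3 of high-fat ZT0, 291 and 248 without replicate 1 or 3 of high-fat ZT6, and 212 and 234 without replicate 1 or 2 of high-fat ZT18. The interaction called 10 genes without replicate 1 of low-fat ZT6, a fit that left that group with the near-identical replicates 2 and 3. It called 8 and 4 without replicate 1 or 2 of low-fat ZT0. It called 1 each without replicate 2 or 3 of low-fat ZT18, and 1 and 2 without replicate 2 or 3 of high-fat ZT18. Since the interaction was called for no gene in the 24 libraries, the values below describe these libraries and do not show a change of profile unless a test is named.

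The core clock cycled on both diets. Of 19 listed clock genes 18 were measured. Time of day was called for 12 on the low-fat diet, against 5.47% of all genes. On the high-fat diet it was called for 15, including the same 12, against 4.19%. The interaction was called for none of the 18, and 5 of them (Per3, Ciart, Bhlhe40, Per2 and Dbp) had an unadjusted p under 0.05, against 7.97% of all genes. Per3 and Ciart were the clock genes of smallest p. Per3, a period protein of the repressor limb, is at chr4:151003652-151044665, and Ciart (CHRONO), a repressor that binds the BMAL1 complex, is at chr3:95878503-95882251 (mm10 coordinates of the GENCODE M21 annotation). The stretches before their start sites are shown because both carry clock motifs in multiple copies, E-boxes in Ciart and D-boxes in Per3. They are from RefSeq on build GRCm38.p6 (chr3:95882259-95882358 and chr4:151044805-151044884, both on the minus strand), and capitals mark the motifs.
Ciart: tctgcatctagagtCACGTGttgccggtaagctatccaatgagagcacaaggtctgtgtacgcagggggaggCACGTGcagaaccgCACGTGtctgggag
Per3: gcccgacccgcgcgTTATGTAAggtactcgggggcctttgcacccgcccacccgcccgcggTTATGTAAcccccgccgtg
The E-box CACGTG starts 116, 58 and 44 bases before the RefSeq start of Ciart, which lies 23 bases inside the 5′ end of the GENCODE gene given above. The D-box TTATGTAA starts 205 and 158 bases before the RefSeq start of Per3, which is the same base as the GENCODE end. Both strands of the 250 bases before each start were searched, and an E-box was present in 6.02% of 32851 RefSeq promoters and a D-box (TTATGTAA or TTACGTAA) in 0.931%. Among the 15 clock genes with a promoter in that set, E-boxes were found in Ciart, Cry1, Per1 and Tef, and a D-box in Per3 only. A match describes letters in this window and not a bound site.

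Per3 was at 4.5, 1.26 and 1.24 FPKM in the 3 low-fat libraries at ZT6 and at 6.84, 7.91 and 6.1 in the high-fat libraries. At ZT12 it was at 4.03, 2.33 and 4.71 on the low-fat and 5.78, 10.8 and 6.23 on the high-fat diet, and at ZT18 at 3.21, 2.53 and 2.94 on the low-fat and 2.06, 2.35 and 1.83 on the high-fat diet. All high-fat libraries thus lay above all low-fat libraries at ZT6 and ZT12 and below them at ZT18. At ZT0 no library of either diet exceeded 0.319. The diet difference was 1.39 (SE 0.28) at ZT6 and -0.34 (SE 0.28) at ZT18 on the log2 scale, and the interaction had an unadjusted p of 0.00111 and an adjusted p of 0.429 (limma).

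Ciart had the same order of libraries at ZT6, with 4.65, 0.414 and 0.678 FPKM on the low-fat and 10.9, 14.5 and 9.63 on the high-fat diet. At ZT12 the values were 10.2, 4.03 and 6.29 on the low-fat and 9.12, 27.2 and 11.4 on the high-fat diet, where the arms overlapped. At ZT18 they overlapped as well, at 1.08, 1.6 and 0.473 on the low-fat and 1.17, 1.56 and 0.993 on the high-fat diet. Its fitted amplitude, the log2 distance from the mean to the peak of a 24 h cosine, was 1.35 (SE 0.22) on the low-fat diet and 2.23 (SE 0.22) on the high-fat diet. In low-fat ZT6, replicate 1 stood above the near-identical replicates 2 and 3 for Per1, Per2, Per3, Ciart, Dbp, Tef and Usp2. Without that replicate Per3 (adjusted p 0.0271) and Ciart (adjusted p 0.0336) passed the interaction test, together with 8 other genes. That fit left low-fat ZT6 with the near-identical replicates 2 and 3 alone, so the spread of that group may be too small. With replicates 2 and 3 counted as 1 and replicate 1 kept, the adjusted p was 0.675 for Per3 and for Ciart. Over the 24 fits without single libraries the adjusted p ran from 0.0271 to 0.709 for Per3 and from 0.0336 to 0.709 for Ciart.

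Per2, another period repressor, had its highest low-fat mean at ZT18 and its highest high-fat mean at ZT12. At ZT18 the low-fat libraries were at 19, 11.6 and 12.9 FPKM and the high-fat libraries at 6.56, 9.29 and 6.56, with no overlap. At ZT12 they were at 9.45, 6.6 and 4.9 on the low-fat and 7.39, 34.2 and 11.2 on the high-fat diet, where the highest value belongs to replicate 2, a library of low correlation. Its cosine peak was at ZT15.7 (SE 0.62 h) on the low-fat diet and ZT12.4 (SE 0.704 h) on the high-fat diet, a difference of -3.32 h (SE 0.938 h), and -3.24 h (SE 1.02 h) without the 3 libraries. Per1, which responds to glucocorticoids as well as to the clock, was at 6.45, 0.858 and 0.844 FPKM at ZT6 on the low-fat diet and at 6.17, 7.19 and 7.24 on the high-fat diet, and its arms overlapped there.

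Dbp, an albumin promoter factor and a direct clock target, was at 31.6, 12.3 and 14 FPKM at ZT6 on the low-fat and 62.2, 68.7 and 51.7 on the high-fat diet. The high-fat libraries all lay above the low-fat ones at that time and the arms overlapped at ZT12 and ZT18. Its amplitude was 2.29 (SE 0.30) on the low-fat diet and 3.13 (SE 0.30) on the high-fat diet, and its peak differed by -0.286 h (SE 0.617 h). Tef, of the same family, was at 29.1, 18 and 18.1 at ZT6 on the low-fat and 39.4, 45.4 and 37.8 on the high-fat diet. At ZT12 it was at 32.7, 23.2 and 29.3 on the low-fat and 41.7, 68.2 and 41.2 on the high-fat diet, so both times separated the diets.

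In the activator limb, Arntl was at 8.51, 7.59 and 8.71 FPKM at ZT0 on the low-fat diet and at 6.12, 5.88 and 5.52 on the high-fat diet. At ZT6 it was at 0.594, 1.76 and 1.79 on the low-fat and 0.185, 0.272 and 0.195 on the high-fat diet. The high-fat libraries were lower at both times without overlap, and the arms overlapped at ZT12 and ZT18. The Arntl peak was at ZT22.1 (SE 0.386 h) on the low-fat diet and ZT20.7 (SE 0.341 h) on the high-fat diet. Clock was also lower on the high-fat diet at ZT6, at 1.61, 1.53 and 1.43 against 2.05, 3.67 and 3.69. Npas2, a Clock paralog, was above 1 FPKM only at ZT0 on both diets.

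Nr1d1, Nr1d2 and Cry1 were the 3 clock genes with a later fitted peak on the high-fat diet. Nr1d1 (REV-ERBα) had its highest mean at ZT6 on both diets, 38.1 ± 1.65 FPKM on the low-fat and 28 ± 2.01 on the high-fat diet (SD, n = 3), with all high-fat libraries lower. At ZT12 it was at 4.46, 2.91 and 8.74 on the low-fat and 9.41, 11.9 and 8.92 on the high-fat diet, higher on the high-fat diet without overlap. Nr1d2 was at 16.2 ± 1.19 and 17 ± 1.94 at ZT6 (SD, n = 3). Cry1, a cryptochrome repressor, was highest at ZT18, at 11.5 ± 1.19 and 11.3 ± 2.4 FPKM (SD, n = 3). Bhlhe40 (DEC1), an E-box repressor, had its highest mean at ZT12 on the low-fat diet (38.1, 35 and 15.4) and at ZT6 on the high-fat diet (36, 18.7 and 25.9).

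All clock genes except Per3, Ciart, Bhlhe40, Per2 and Dbp had an unadjusted interaction p above 0.05, Tef, Arntl and Nr1d1 included. Hlf, the partner of Dbp and Tef, was at 7.85, 10.6 and 8.74 FPKM at ZT18 on the low-fat and 7.34, 6.44 and 7.44 on the high-fat diet, lower on the high-fat diet without overlap. Nfil3 (E4BP4), a repressor at D-boxes, was at 20.2, 17.4 and 20.5 at ZT0 on the low-fat and 2.76, 23 and 20.3 on the high-fat diet, where the low value is the library with many values of 0. Cry2 was at 5.82, 6.43 and 6.77 at ZT18 on the low-fat and 7.15, 5.44 and 5.45 on the high-fat diet, with overlap. Rora, an activator of Arntl, was highest at ZT0 on both diets and its arms overlapped there.

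**Figure D1:**
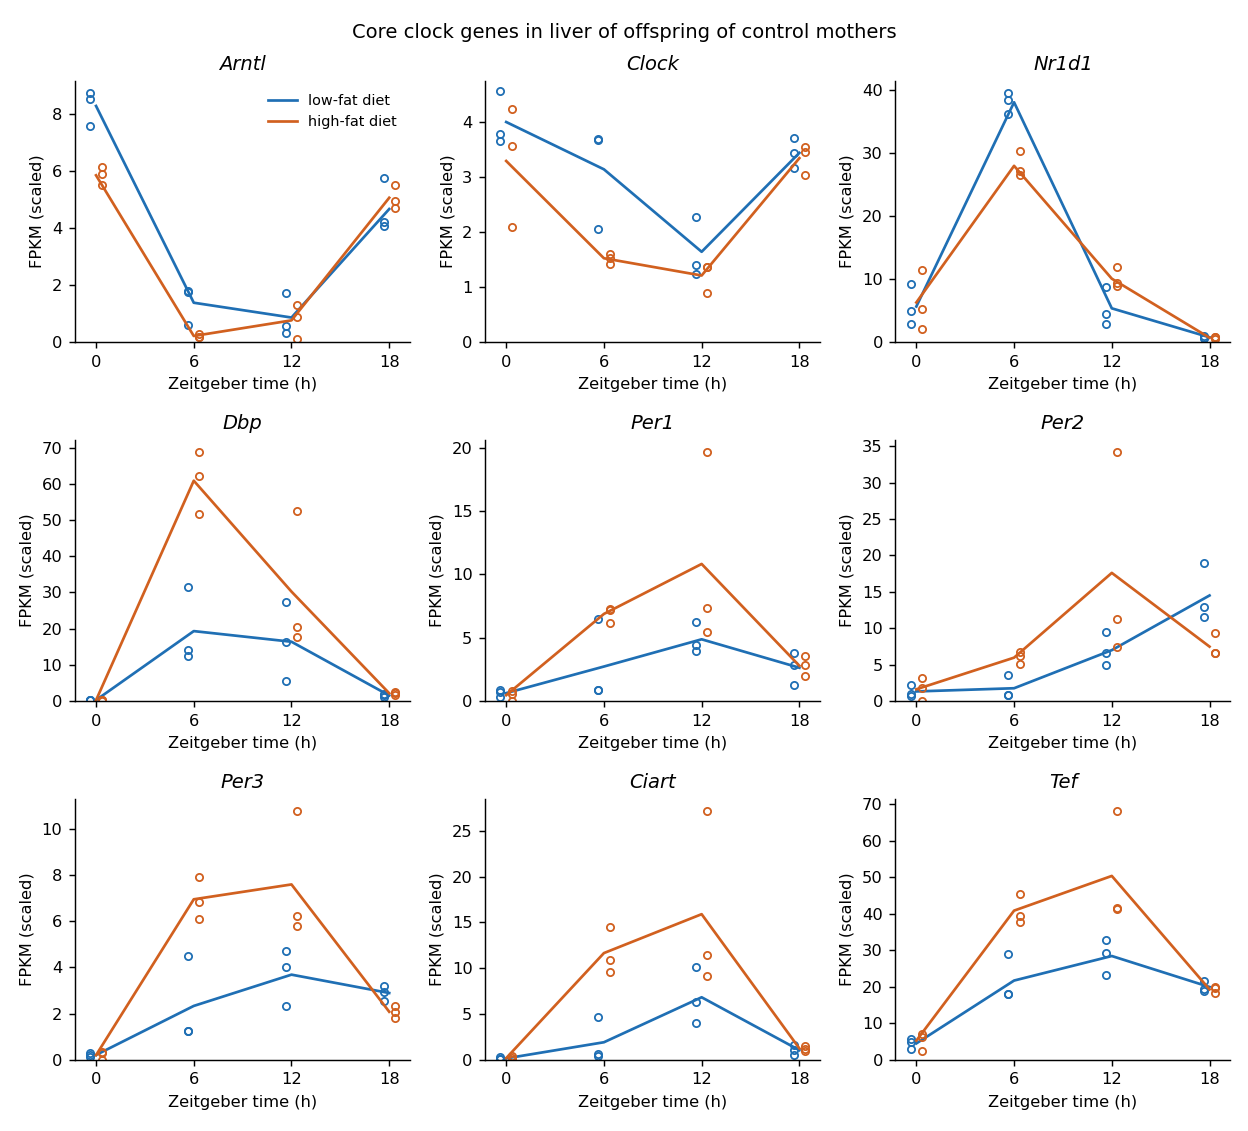
Level of 9 core clock genes (scaled FPKM, linear axes from 0) against zeitgeber time, with circles for single libraries and lines through the means of 3, low-fat in blue and high-fat in orange. Per3 and Dbp show every high-fat library above every low-fat library at ZT6, while Nr1d1 is highest at ZT6 on both diets; the ZT0 mean on the high-fat diet includes the library with many values of 0.

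Peak times could be compared for the 16 clock genes whose amplitude reached 2 of its SE in both arms. The fitted peak was earlier on the high-fat diet for 13 of the 16, with a circular mean difference of -1.39 h and a range from -3.71 h (SE 1.96 h) for Bhlhe40 to 0.797 h (SE 0.501 h) for Nr1d1. The median SE of a single gene's difference was 0.842 h. Clock genes of 1 library are not independent of each other, so the 13 genes are a description with no test. The mean was -1.19 h without the 3 libraries of low correlation (12 of 15 genes earlier). It ran from -1.82 h (without replicate 1 of low-fat ZT6) to -1.10 h (without replicate 1 of high-fat ZT0) when single libraries were left out. In the separate libraries of offspring of shifted mothers, 14 of 15 genes peaked earlier on the high-fat diet and the mean difference was -1.27 h. Most of their low-fat libraries correlated with their arm at under 0.95, with every replicate at ZT6 among them (0.927, 0.946 and 0.947). The others were replicates 1 (0.889) and 3 of ZT0, replicate 1 of ZT12 and replicates 2 and 3 of ZT18. The peak differences of those offspring were therefore not repeated without libraries of low correlation. With samples 6 h apart, a shift of this size lies within the gap between 2 samples and was read from the ratios of the 4 means. Fitted amplitudes were larger on the high-fat diet for 12 of the 18 genes, and the median difference was 0.13 on the log2 scale against a median SE of 0.26. In offspring of shifted mothers 8 were larger and 10 smaller on the high-fat diet, with a median difference of -0.04.

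**Figure D2:**
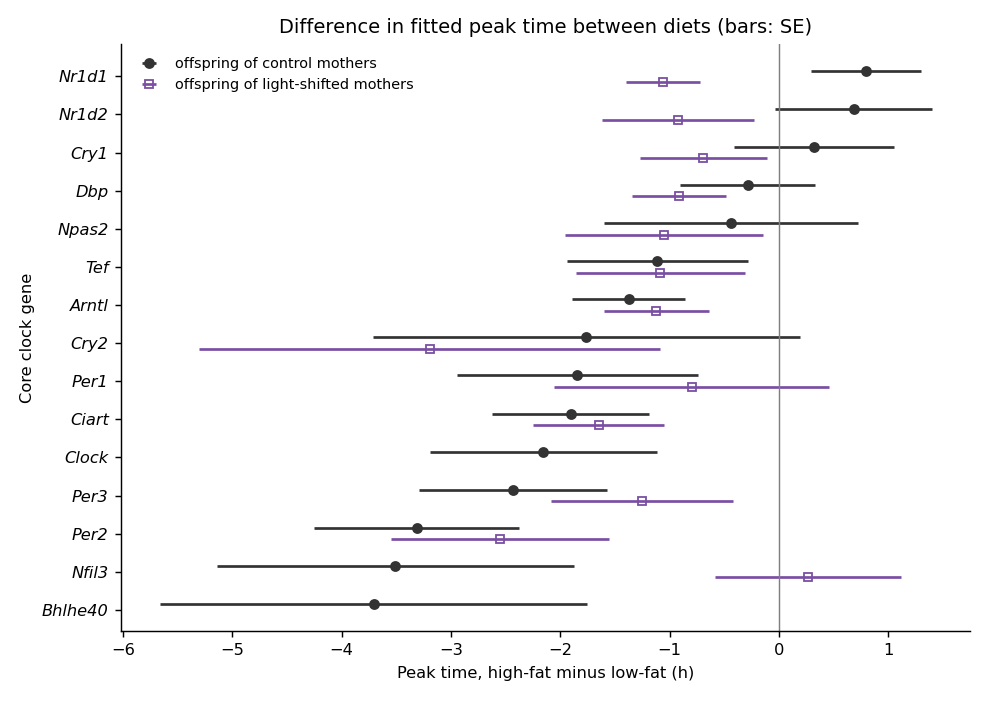
Fitted peak time on the high-fat minus the low-fat diet (h, bars are SE) for 15 of the 16 core clock genes with a usable peak on both diets, for offspring of control mothers (black) and of shifted mothers (purple, where usable). Most points lie left of 0, and Nr1d1, Nr1d2 and Cry1 lie to its right in offspring of control mothers.

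Genes under clock control were described from a list of 18 measured outputs. The interaction was called for none and 6 had an unadjusted p under 0.05, against 7.97% of all genes (Tspan4, Usp2, Wee1, Tsku, Gys2 and Upp2). Time of day was called for 13 on each diet, against 5.47% (low-fat) and 4.19% (high-fat) of all genes. It was called for 12 on both, against 156 of all 10499 genes. Tspan4, a membrane tetraspanin, had the smallest p of the list, and here and in the lists below the other members named were chosen after their values were seen. It was at 20, 12.2 and 13.2 FPKM at ZT6 on the low-fat and 27, 26.8 and 34.3 on the high-fat diet, without overlap. At ZT12 it was at 49.1, 55.2 and 38.2 on the low-fat and 42.2, 28 and 32.3 on the high-fat diet, and its amplitude was 1.02 (SE 0.12) on the low-fat diet and 0.49 (SE 0.12) on the high-fat diet. Usp2, a deubiquitinase, followed the order of Ciart at ZT6, with 3.72, 0.818 and 0.914 on the low-fat and 6.43, 12.2 and 7.44 on the high-fat diet. Wee1, a kinase that holds back mitosis, was at 1.91, 2.48 and 2.55 at ZT18 on the low-fat and 1.33, 0.931 and 1.15 on the high-fat diet, and at ZT6 the order was the opposite, 1.2, 1.5 and 1.4 on the low-fat and 2.21, 2.8 and 2.38 on the high-fat diet. Of the 18 outputs, 8 had all high-fat libraries above all low-fat libraries at ZT6, against 12.1% of all genes, and 3 had them all below, against 12.3%.

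Outside the clock, Nampt had the smallest p. It encodes the rate-limiting enzyme of NAD salvage, is a known clock target and is at chr12:32819545-32853349. On the low-fat diet it was at 21.7, 24.9 and 21.7 FPKM at ZT12, above all other low-fat libraries. On the high-fat diet it was at 12.4, 10.6 and 10.9 at ZT12, and its means at ZT6, ZT12 and ZT18 lay between 11.3 and 12.5. The ZT12 means were 22.8 ± 1.83 and 11.3 ± 0.962 FPKM (SD, n = 3), a difference of -0.95 (SE 0.13) on the log2 scale. At ZT6 the order was the opposite, 9.25, 7.97 and 7.77 on the low-fat and 10.7, 11 and 12.8 on the high-fat diet. The interaction had an adjusted p of 0.0593, and of 0.0248 without replicate 1 of high-fat ZT0. Over fits without single libraries its adjusted p ran from 0.0176 to 0.199, and in 6 of the 24 it was under 0.05. With replicates 2 and 3 of low-fat ZT6 counted as 1 it was 0.194. Of the 12 measured genes of NAD synthesis and the sirtuins, 1 (Nampt) had an unadjusted p under 0.05, or 8.33%, near the 7.97% of all genes.

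Srm, spermidine synthase, at chr4:148591503-148594993, had a daily profile on the low-fat diet that was smaller on the high-fat diet. At ZT6 it was at 11.6, 5.27 and 6.98 FPKM on the low-fat and 19.2, 20.3 and 18.6 on the high-fat diet. At ZT18 it was at 32.2, 30.6 and 29.9 on the low-fat and 16, 17 and 21.5 on the high-fat diet. The arms did not overlap at either time and the order reversed between them. The amplitude was 1.09 (SE 0.11) on the low-fat diet and 0.22 (SE 0.11) on the high-fat diet. Time of day was called on the low-fat diet (adjusted p 4.18e-05) and not on the high-fat diet (adjusted p 0.413), and the interaction had an adjusted p of 0.0662. It passed without replicate 1 of high-fat ZT0 (0.0248), without the 3 libraries (0.0456) and in the fit of all 48 offspring libraries (0.0386). Over fits without single libraries its adjusted p ran from 0.0091 (without replicate 1 of low-fat ZT6) to 0.259. With replicates 2 and 3 of low-fat ZT6 counted as 1 it was 0.202.

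Hspa8, the constitutive HSC70 chaperone, was at 1509, 1387 and 1341 FPKM at ZT18 on the low-fat and 412, 862 and 553 on the high-fat diet. At ZT6 it was at 426, 273 and 273 on the low-fat and 395, 457 and 532 on the high-fat diet, with overlap. Its adjusted p was 0.329, and 0.0428 in the fit of 48 libraries, and 0.0356 to 0.709 over fits without single libraries. With replicates 2 and 3 of low-fat ZT6 counted as 1 it was 0.667. Agtr1a, the angiotensin receptor of hepatocytes, was at 33.7, 29.9 and 29.5 at ZT6 on the low-fat and 19.9, 23.5 and 21.5 on the high-fat diet, and at 13.1, 11.6 and 10.3 on the low-fat and 21.8, 20.7 and 20.2 on the high-fat diet at ZT18. The order of the arms thus reversed between ZT6 and ZT18. The adjusted p was 0.329, or 0.0468 without the 3 libraries, and 0.115 to 0.709 over fits without single libraries. With replicates 2 and 3 of low-fat ZT6 counted as 1 it was 0.675.

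Ypel2, of the Yippee-like family, was at 2.91, 2.94 and 2.95 FPKM at ZT6 on the low-fat and 1.17, 1.32 and 1.4 on the high-fat diet, and at 2.3, 2.32 and 2.78 on the low-fat and 5.61, 3.74 and 4.07 on the high-fat diet at ZT18. The order of the arms reversed between these times without overlap. Its fitted peak on the high-fat minus the low-fat diet was -3.51 h (SE 0.586 h), and its amplitude was 0.79 (SE 0.09) on the low-fat diet and 0.87 (SE 0.09) on the high-fat diet. Xlr4a, an X-linked lymphocyte-regulated gene with near-identical copies beside it, was at 1.36, 2.18 and 1.58 FPKM at ZT12 on the high-fat diet. The other 21 libraries did not exceed 0.596, so it entered the test only through that group, and its reads may be shared with the copies.

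The 8 remaining genes among the 15 of smallest p had an adjusted p of 0.329. Tmem30a, a subunit of phospholipid flippases, and Tmx4, a thioredoxin-like membrane protein, were lower on the high-fat diet at ZT12. Tmem30a was at 40.5, 53.9 and 45.7 FPKM at ZT12 on the low-fat and 22.9, 15.4 and 23.5 on the high-fat diet. Tmx4 was at 3.15, 4.72 and 4.44 on the low-fat and 2.09, 0.972 and 1.57 on the high-fat diet. Tcp11l2, Rgl1 and Sdc3, a heparan sulfate proteoglycan, were higher on the high-fat diet at ZT18, with differences of 1.13 (SE 0.27), 0.67 (SE 0.13) and 0.97 (SE 0.20). Mmp15, a membrane-bound metalloproteinase, was lower there, at -0.77 (SE 0.17). Cables1 differed most at ZT6, with 1.02, 1.1 and 1.11 FPKM on the low-fat and 0.471, 0.33 and 0.333 on the high-fat diet. Those low-fat libraries alone carried it through the filter, and it was tested in 21 of the 24 fits without single libraries. Nrep was at 26.6, 48.7 and 33.4 at ZT12 on the low-fat and 16.1, 11.6 and 20.5 on the high-fat diet.

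**Figure D3:**
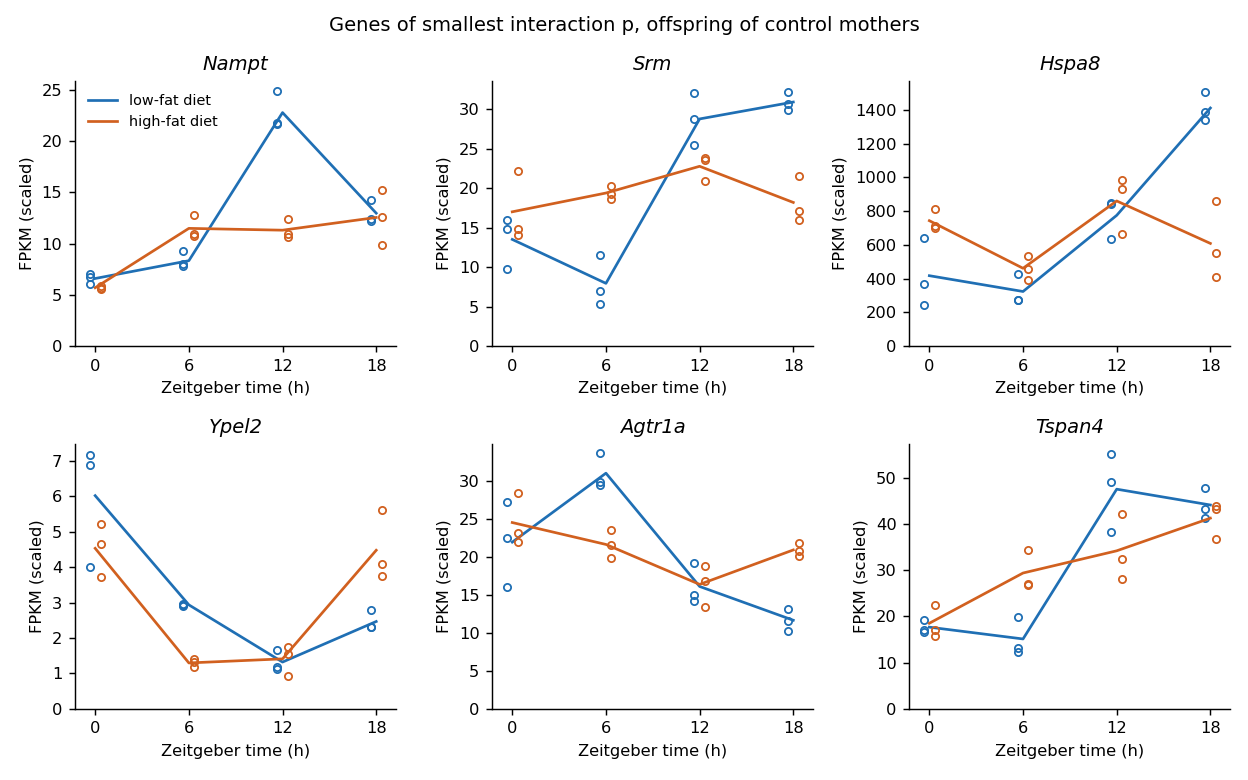
Level of Nampt, Srm, Hspa8, Ypel2, Agtr1a and Tspan4 (scaled FPKM, linear axes from 0) against zeitgeber time, with circles for single libraries and lines through the means of 3. Nampt at ZT12 and Hspa8 at ZT18 are high on the low-fat diet, and Srm and Agtr1a change the order of the diets between ZT6 and ZT18.

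Genes of fatty acid synthesis mostly had smaller fitted amplitudes on the high-fat diet. Of 20 listed and measured genes, 17 had a smaller amplitude on the high-fat diet, against 4797 of all 10499 genes. The median amplitude was 0.77 on the low-fat and 0.49 on the high-fat diet. None passed the interaction test and 8 had an unadjusted p under 0.05 (among them Mid1ip1, Fasn, Insig2, Thrsp, Srebf1, Pklr and Pnpla3), which is 40% of the list against 7.97% of all genes. The list's median difference between diets was -0.55 in the ZT0 libraries, 0.04 in those of ZT6, -0.93 in those of ZT12 and -1.35 in those of ZT18, while the medians over all genes lay between -0.10 and 0.02. At ZT18, 10 of the 20 had every high-fat library below every low-fat library, against 10.6% of all genes. At ZT0, the time that holds the library with many values of 0, 7 did, against 9.54%. At ZT18 the summed macrophage markers were lower in the low-fat libraries (60.7 to 96.1 FPKM) than in the high-fat libraries (136 to 273), and their part in these differences was not tested.

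Mid1ip1, which activates acetyl-CoA carboxylase, had the smallest p of the list (0.0014 unadjusted). It was at 51.3, 34.5 and 46.6 FPKM at ZT18 on the low-fat and 22.6, 16.9 and 20.6 on the high-fat diet. Fasn, fatty acid synthase, was at 196, 73.3 and 239 at ZT18 on the low-fat and 20.9, 17.8 and 20.4 on the high-fat diet, a difference of -2.88 (SE 0.49). At ZT6 the arms of Fasn overlapped, at 51.1, 28.8 and 28.8 on the low-fat and 56.3, 14.6 and 47 on the high-fat diet. Thrsp (Spot 14), a lipogenic regulator, was at 3047, 3170.0 and 3272 at ZT12 on the low-fat and 1422, 1467 and 2242 on the high-fat diet, and its amplitude was 3.20 (SE 0.35) on the low-fat diet and 1.70 (SE 0.35) on the high-fat diet. At ZT18 replicate 2 of the low-fat diet stood below the other low-fat libraries for Thrsp, Fasn, Pklr and Pnpla3. Pnpla3, a lipid droplet protein, was at 33.9, 0.415 and 30 there, and without that library its interaction had an adjusted p of 0.000168, the only call in that fit.

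Srebf1, whose SREBP-1c product drives lipogenic genes, had its highest mean at ZT12 on both diets, 82.1 ± 30.3 and 80.4 ± 39.4 FPKM (SD, n = 3). At ZT18 it was at 65.7, 50.2 and 85.5 on the low-fat and 37.2, 25.9 and 21 on the high-fat diet, without overlap. Insig2, which holds SREBPs in the endoplasmic reticulum, was highest at ZT0 on both diets. At ZT6 it was lower on the high-fat diet without overlap, at 61.6, 86.1 and 83.6 on the low-fat and 22.8, 25.5 and 24.2 on the high-fat diet.

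Of 18 genes of gluconeogenesis and glycogen, 7 had an unadjusted p under 0.05, against 7.97% of all genes (among them Slc37a4, Pck1, Sds, Gys2, Slc2a2 and Ppp1r3b) and none passed. At ZT18, 7 of the 18 had all high-fat libraries below all low-fat libraries, against 10.6% of all genes, and 4 had them all above, against 13.6%. Among the 7 were Slc2a2 (GLUT2), Slc37a4, the glucose 6-phosphate transporter, and Gys2, liver glycogen synthase. Slc37a4 FPKM was at 82.6, 105 and 93.2 on the low-fat and 34, 34.9 and 53.2 on the high-fat diet. Pck1, the gluconeogenic PEP carboxykinase, had the opposite order, at 88.6, 296 and 74.1 on the low-fat and 855, 756 and 751 on the high-fat diet, a difference of 2.64 (SE 0.53). Sds, serine dehydratase, was at 52.5, 54.2 and 44.2 on the low-fat and 209, 259 and 84.6 on the high-fat diet. Both genes were low on the low-fat diet at ZT18 relative to ZT12, where Pck1 was at 672, 464 and 704 on the low-fat and 653, 855 and 920.5 on the high-fat diet.

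Amino acid catabolism and the urea cycle held 21 measured genes, of which 6 had an unadjusted p under 0.05, against 7.97% of all genes (among them Got1, Cbs, Sds, Slc25a15 and Gls2) and none passed. At ZT18, 20 of the 21 had a higher mean on the high-fat diet, against 5439 of all 10499 genes, and 8 had all high-fat libraries above all low-fat libraries, against 13.6% of all genes. Got1, cytosolic aspartate aminotransferase, had the smallest p. It was at 50.9, 64.4 and 46.7 FPKM at ZT18 on the low-fat and 165, 230.1 and 81.7 on the high-fat diet. Cbs, which starts transsulfuration, was at 59.9, 67 and 74.1 on the low-fat and 154, 141 and 92.9 on the high-fat diet.

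Genes of cholesterol synthesis and uptake differed in the time of the highest mean. On the high-fat diet all 22 measured genes had their highest mean at ZT6, against 2291 of all 10499 genes, and on the low-fat diet 13 had it at ZT18, 8 at ZT6 and 1 at ZT12. The interaction was called for none and 4 had an unadjusted p under 0.05, Sqle among them, against 7.97% of all genes. Time of day was called for 1 member on each diet, near the 5.47% (low-fat) and 4.19% (high-fat) of all genes. Sqle, squalene epoxidase, was at 17.7, 15.1 and 37.6 FPKM at ZT12 on the low-fat and 6.12, 7.62 and 6.55 on the high-fat diet, without overlap. At ZT6 it was at 18.3, 15.5 and 17.2 on the low-fat and 48.7, 17.9 and 32.5 on the high-fat diet, where the arms overlapped and the high-fat libraries spread widely.

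Most genes of 2 chaperone lists, for the cytosol (heat shock) and the endoplasmic reticulum (unfolded protein response), had their highest low-fat mean at ZT18. For the heat shock list 11 of 16 genes had their highest mean at ZT18 on the low-fat diet and 6 on the high-fat diet, and for the unfolded protein response list 18 of 22 and 5, against 2148 and 2204 of all 10499 genes. Time of day was called on the low-fat diet for 6 genes of each list, against 5.47% of all genes. On the high-fat diet it was called for 1 and 0, against 4.19%. Fitted amplitudes were smaller on the high-fat diet for 13 of 16 and 19 of 22 genes, against 4797 of all genes. In the heat shock list 6 had an unadjusted p under 0.05, against 7.97% of all genes (Hspa8, Dnaja1, Hsph1, Bag3, Hspa1b and Dnajb1). In the unfolded protein response list 5 did (Xbp1, Manf, Asns, Hspa5 and Creld2), and none of either list passed. At ZT18, 21 of the 22 unfolded protein response genes had a lower mean on the high-fat diet, against 5052 of all 10499 genes. The exception was Asns, asparagine synthetase, with 0.529, 0.745 and 0.428 FPKM on the low-fat and 6.94, 5.44 and 1.05 on the high-fat diet. The ZT18 libraries are those in which the macrophage markers also differed, and their part was not tested.

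Hsph1, an HSP70 exchange factor, was at 18.2, 28.3 and 27.5 FPKM at ZT18 on the low-fat and 10.6, 15 and 11.1 on the high-fat diet, and at 3.55, 2.96 and 3.42 on the low-fat and 8.39, 5.64 and 9.21 on the high-fat diet at ZT6. Both times separated the diets, in opposite order. Dnaja1, an HSP40 partner of HSC70, was at 53.7, 74.5 and 62.8 at ZT18 on the low-fat and 37.1, 46.3 and 38.9 on the high-fat diet, with no overlap. Hspa1b, the inducible HSP70, has a near-identical neighbour in Hspa1a, so its FPKM is uncertain. Hspa5 (BiP), the main chaperone of the endoplasmic reticulum, was at 426, 924 and 511 on the low-fat and 306, 201 and 301 on the high-fat diet at ZT18. Xbp1, the transcription factor of that response, had the smallest p of its list, with 53.9, 46.9 and 46.5 at ZT6 on the low-fat and 112, 80.4 and 98.8 on the high-fat diet. Its arms overlapped at ZT18, at 93.7, 79.6 and 102 on the low-fat and 67, 97.2 and 100 on the high-fat diet.

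**Figure D4:**
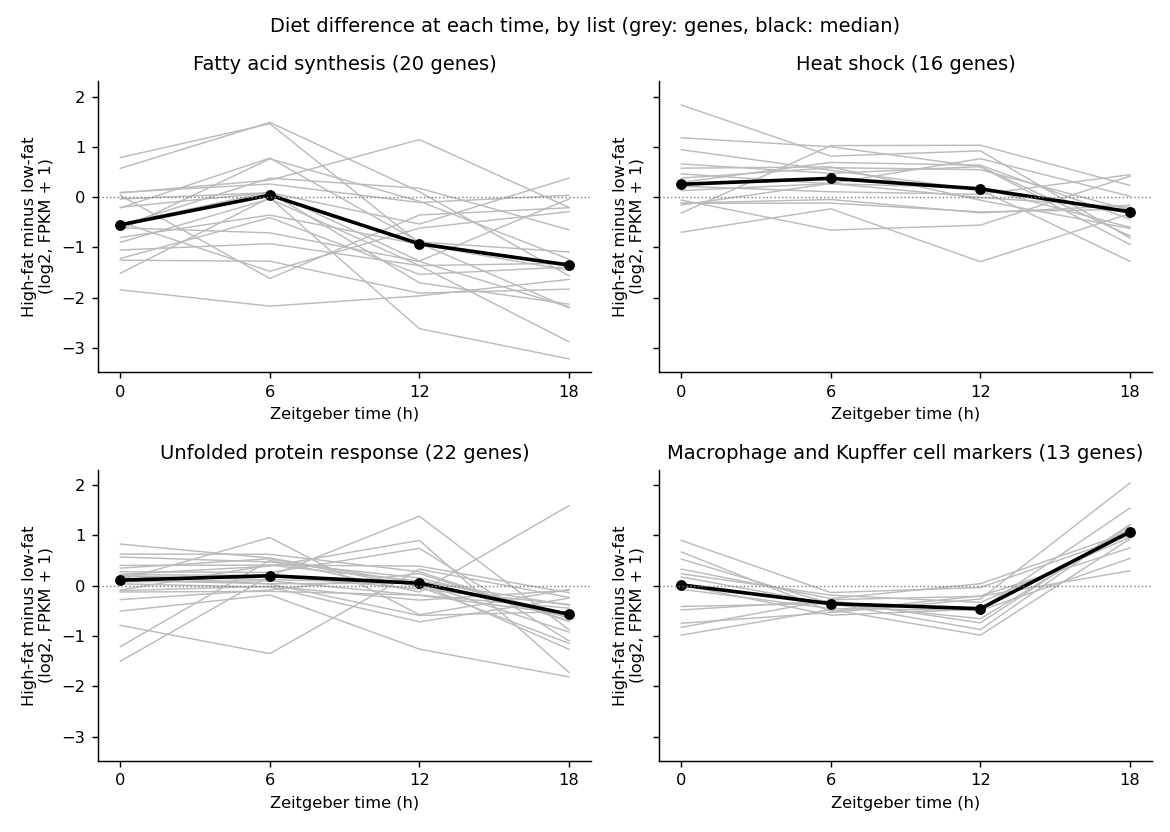
High-fat minus low-fat difference (log2 of FPKM + 1) against zeitgeber time for 4 lists, with grey lines for genes and black points for the median. The fatty acid synthesis median is lowest at ZT18 (-1.35), the heat shock and unfolded protein response medians are below 0 only at ZT18, and the macrophage median is above 1 at ZT18.

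Markers of macrophages and Kupffer cells, the resident macrophages of liver, were lowest in the low-fat libraries at ZT18. Of 13 measured markers, 10 had an unadjusted p under 0.05, against 7.97% of all genes, and none passed. Without the 3 libraries of low correlation 11 had an unadjusted p under 0.05, against 12% of all genes (1239 of 10313), and again none passed. The summed level of the list at ZT18 was 60.7, 88.8 and 96.1 FPKM on the low-fat and 273, 136 and 198 on the high-fat diet. The low-fat libraries at ZT18 were the lowest of the 24, and over the remaining 21 libraries the sum ran from 107.5 to 273 FPKM. All 13 markers had a higher mean on the high-fat diet at ZT18, against 5439 of all 10499 genes, and 12 did not overlap, against 13.6% of all genes. At ZT6 all 13 had a lower mean on the high-fat diet, against 5362 of all 10499 genes, with overlap for every marker. At ZT12 12 did, against 5051 of all genes, and 6 of them did not overlap, against 13.5%. No marker had its highest mean at ZT18 on the low-fat diet and 10 of 13 had it there on the high-fat diet, against 2148 and 2204 of all 10499 genes. Timd4, a receptor of resident Kupffer cells, had the smallest p (0.00122 unadjusted). It was at 0.611, 0.765 and 0.996 FPKM at ZT18 on the low-fat and 2.63, 1.42 and 2.1 on the high-fat diet. C1qa, a complement component made by macrophages, was at 11.8, 17.5 and 17.6 on the low-fat and 45.5, 23.1 and 36.3 on the high-fat diet. Of the defining markers, Marco and Cd14 were listed at 0 in at least 1 library, and Ccr2 did not pass the filter. In bulk liver, fewer cells of a type and less RNA per cell cannot be told apart.

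Endothelial markers had the same order at ZT18. Their sum was 49.3, 35.8 and 47.4 FPKM on the low-fat and 71.7, 81.7 and 73.1 on the high-fat diet. Of 10 markers, 4 had an unadjusted p under 0.05 (Lyve1, Pecam1, Cdh5 and Oit3), against 7.97% of all genes, and 7 did without the 3 libraries, against 12%. At ZT18 all 10 had a higher mean on the high-fat diet, against 5439 of all 10499 genes, and 8 did not overlap, against 13.6% of all genes. Clec1b and Mrc1, expressed by sinusoidal endothelium and macrophages, were among the 7 genes called without the 3 libraries. Clec1b had low-fat means of 5.9 FPKM at ZT6 and 2.54 at ZT18, and high-fat means of 4.84 and 6.96. Mrc1, the mannose receptor, had 5.29 and 2.8 on the low-fat and 3.75 and 5.48 on the high-fat diet. Of 11 hepatocyte identity genes 0 had an unadjusted p under 0.05, near the 7.97% of all genes. At ZT18 3 of the 11 had a higher and 8 a lower mean on the high-fat diet, against 5439 and 5052 of all 10499 genes. Their sum at ZT18 was 66560, 49659 and 52167 FPKM on the low-fat and 59326, 55068 and 54717 on the high-fat diet. The stellate and matrix, lymphocyte and neutrophil lists had the order of the macrophage markers at ZT18. The mean was higher on the high-fat diet for 11 of 12, 5 of 5 and 2 of 2 of their genes, against 5439 of all 10499 genes. Of these, 3, 3 and 2 did not overlap, against 13.6% of all genes. The cholangiocyte list, also non-parenchymal, went the other way, with a lower mean for 5 of 5 genes and 0 without overlap. The part of the non-parenchymal markers in the ZT18 differences of the other genes was not tested.

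**Figure D5:**
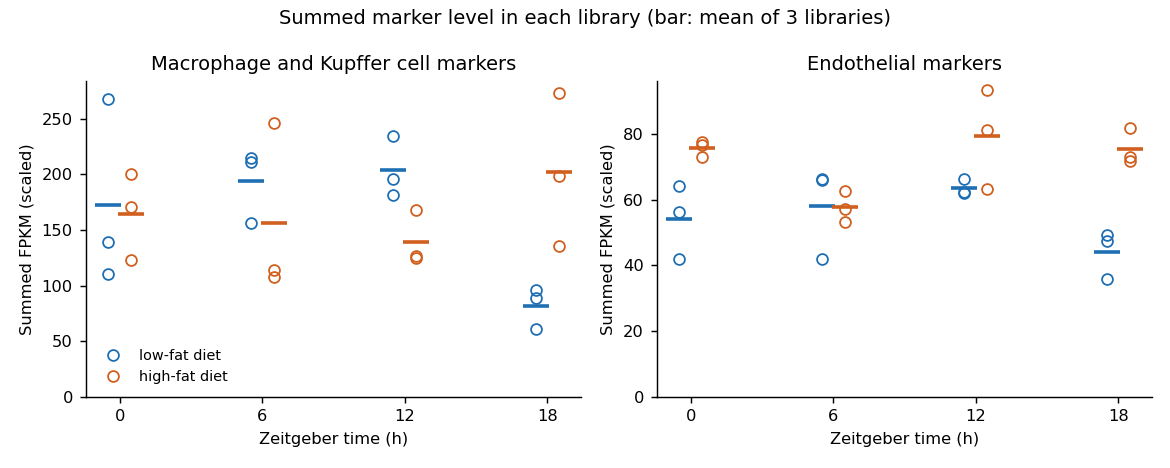
Summed level of macrophage and Kupffer cell markers and of endothelial markers (scaled FPKM, axes from 0) in each library against zeitgeber time, circles for libraries and bars for means of 3. The 3 low-fat libraries at ZT18 have the lowest macrophage sums of the 24, from 60.7 to 96.1 FPKM.

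The remaining lists were counted in the same way, and the share of all genes with an unadjusted p under 0.05 to read them against is 7.97%. Of 24 genes of fat oxidation and ketogenesis 2 had an unadjusted p under 0.05, of 22 of oxidative phosphorylation 2, of 19 of lipid droplets and lipases 1, and of 15 of bile acid synthesis and transport 0. The drug-metabolizing cytochrome P450 list had 0 of 16, the growth hormone and IGF axis 1 of 14, glucocorticoid targets 2 of 16, heme synthesis and breakdown 2 of 11 and acute phase genes 3 of 17. Immediate early genes had 3 of 13 and cell cycle genes 4 of 10, Wee1 among them. In fat oxidation, 21 of the 24 genes had a lower mean on the high-fat diet at ZT6 and 22 at ZT18, against 5362 and 5052 of all 10499 genes. The smallest p of that list belonged to Creb3l3, a fasting-responsive transcription factor of liver. Of the oxidative phosphorylation genes, 9 of 22 had every high-fat library above every low-fat library at ZT0, the time that holds the library with many values of 0, against 6.87% of all genes. Among other cell type markers, 4 of 10 periportal (Pck1, Sds, Hal and Gls2), 1 of 10 pericentral, 2 of 12 stellate and matrix, 1 of 5 lymphocyte, 1 of 2 neutrophil and 0 of 5 cholangiocyte genes had an unadjusted p under 0.05, against the same 7.97% of all genes. The erythroid, adipocyte and exocrine pancreas lists had 2 measured genes each and 0 such genes.

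The diet differences in profile were set against those of the offspring of shifted mothers by a test of the difference itself, in all 48 libraries. It was called for 0 of 10869 genes (limma F test, 0%), and 1212 (11.2%) had an unadjusted p under 0.05, so no profile was shown to be particular to offspring of control mothers. Most low-fat libraries of those other offspring, with every replicate at ZT6 among them, correlated with their arm at under 0.95. Replicates 1 and 2 of their low-fat ZT12 had near-equal macrophage sums (162.48 and 162.95 FPKM) and endothelial sums (70.165 and 70.179 FPKM). Their neutrophil sums were 3.78 and 2.59 FPKM. Replicate pairs of those offspring were not compared, and both libraries were counted as separate. In those offspring the diet by time interaction was called for 32 of 10489 genes (0.305%), and 22.1% had an unadjusted p under 0.05. No member of the lists for the core clock, fatty acid synthesis, cholesterol, heat shock, unfolded protein response or macrophages was among the called genes. Of the fatty acid synthesis list 10 of 20 had an unadjusted p under 0.05 there, of cholesterol 13 of 22, of macrophage markers 6 of 13, and of heat shock 2 of 16 and unfolded protein response 2 of 22, the last 2 below the share of all genes. Nampt was at 14.5, 15.5 and 15.7 FPKM at ZT12 on the low-fat and 22.6, 23.1 and 19.9 on the high-fat diet in those offspring, so the high-fat libraries were higher without overlap there. Its test of the difference between the 2 kinds of mother had an unadjusted p of 0.01 and an adjusted p of 0.403. Srm was at 30.7, 14.5 and 26 and 15.9, 14.3 and 12.1 at ZT18, with an unadjusted interaction p of 0.00679 within those offspring.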

How the data were processed

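Liver poly(A) RNA was measured in 24 libraries, 3 per diet and time. The deposited values are FPKM per gene that the authors made with TopHat2 2.1.1 and Cufflinks 2.2.1 on mm10, per the submitters' processing notes; the annotation is not given in the sources used here. Read counts and depth cannot be recovered, so precision is given only by the spread of libraries. Of 24883 table entries, 817 that shared 280 symbols were left out. FPKM was scaled by median-of-ratios factors over 48 offspring libraries, and genes with at least 1 FPKM in at least 3 libraries were tested on log2(FPKM + 1) with limma 3.58.1 (R 4.3.3, trend). The interaction is an F test with 3 degrees of freedom, with Benjamini-Hochberg adjustment and a threshold of 0.05. Amplitude and peak come from 24 h cosines, and peaks are given where the amplitude is at least 2 SE. The limma fits were tested on simulated data. The text names core clock genes, the 15 genes of smallest p with a gene name, and the smallest-p member of each list described, and some genes that this rule or the lists select are counted but not reported here by name. Members, lists and tests were chosen with earlier results of these data known. Replicate numbers were checked and do not pair libraries: the deviations of same-numbered libraries had a median correlation of -0.0067 over 84 pairs. Alternatives were pseudocount, filter, scaling, quality weights, libraries left out, a replicate block, a GC and length term, and all 48 offspring libraries in 1 fit. The other 48 libraries of the series were not analysed here.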

Additional observations from a re-analysis of the deposited data

How the results depend on the processing

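Genes called for the interaction (0) numbered 2 with upper-quartile scaling, 3 with 48 libraries, 7 without the 3 libraries of low correlation and 0 to 10 without single libraries, where 8 of 24 fits called any gene. Low-fat and high-fat time-of-day calls (574 and 440) were 2577 and 774 without the 3 libraries, 1002 and 1860 with 48 libraries, and 346 to 1531 and 212 to 1045 without single libraries. With replicates 2 and 3 of low-fat ZT6 counted as 1, there were 0 interaction, 352 low-fat and 318 high-fat calls. In that setting 629 of 10475 genes had an unadjusted interaction p under 0.05, against 837 of 10499 in the main fit. Library quality weights gave 2883 interaction, 7129 low-fat, 4401 high-fat and 3972 maternal-difference calls, and on simulated data that fit also called unchanged genes. The simulated data were not drawn with outlying libraries like those seen here, so they do not tell how many of these calls are false. No filter gave 1 call of the difference between mothers. The mean clock peak difference ran from -1.82 to -1.10 h and the median amplitude difference from 0.0576 to 0.142 without single libraries. A replicate block gave 0 interaction calls (882 at an unadjusted p under 0.05), 523 low-fat and 347 high-fat calls. Of the adjusted p-values of the core clock genes and the genes of smallest p under these alternatives, 1126 kept their side of the threshold and 53 passed it. The 1126 include a setting that kept the main p-values with a stricter threshold of 0.01, where none could pass. Many of the 53 came from the fit with library quality weights, which also called unchanged genes on simulated data. In that fit all the genes of smallest p passed. Some core clock genes passed there (Per3 and Ciart among them) and others did not (Cry1 and Cry2 among them). The test of the difference between mothers without the libraries of low correlation was not run because 1 group would be empty. The cause of these shifts was not tested.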
